A study of Mus musculus with 12 samples.

Results

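Aminoacyl-tRNA synthetases are the enzymes that load each amino acid onto its transfer RNA (tRNA), and 36 of their genes were followed here among the 24346 gene symbols of a mouse B cell RNA-seq series. They were taken by name: 20 encode cytosolic enzymes (Aars to Yars) and 16 encode mitochondrial enzymes, whose symbols end in 2. All 36 were listed in each of the 12 libraries and passed the filter on low values, a level of at least 1 FPKM (fragments per kilobase of transcript, scaled to the mapped total) in at least 2 libraries, as did 10797 genes in all. RNA came from marginal zone B cells (MZB), innate-like B lymphocytes at the edge of the splenic white pulp. The wild-type groups were cells held for 4 h unstimulated, with lipopolysaccharide (LPS, 10 µg/mL), or with antibody against IgM (anti-IgM, 10 µg/mL). The Trpm5-/- groups were cells lacking the calcium-activated cation channel TRPM5 under the same 3 conditions. Toll-like receptor 4 senses LPS, whereas antibody to IgM engages the B cell's antigen receptor. Each of the 6 groups held 2 libraries. The sources used here state neither the age and strain of the mice, nor the deleted part of Trpm5, nor whether both libraries of a group stem from different animals. Every p-value therefore reflects the scatter of these libraries only, possibly technical scatter.

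Each synthetase first activates its amino acid with ATP and then joins it to the matching tRNA, and the charged tRNA is what the ribosome uses. Cells keep separate sets for the cytosol and for the mitochondrion, where the proteins encoded by mitochondrial DNA are made. In animal cells the enzymes encoded by Dars, Eprs, Iars, Kars, Lars, Mars, Qars and Rars sit together in the multisynthetase complex. Gars and Kars are known to supply both compartments and were counted as cytosolic, and Farsa and Farsb encode the subunits of 1 enzyme. Uncharged tRNA is the signal read by the kinase GCN2, which raises the transcription factor ATF4, and several cytosolic synthetase genes are known ATF4 targets.

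The libraries summed to 563461 to 805373 FPKM with 12737 to 13483 symbols above 0, and their relative depth, read from the size of the smallest steps, ran from 0.646 to 1.07 of wild-type unstimulated replicate 1. Trpm5 was near 0 throughout: in wild-type cells 0.0196 and 0.210 FPKM (unstimulated), 0.434 and 0.321 FPKM (LPS), and 0.0590 and 0.0241 FPKM (anti-IgM), against 0.0236 and 0.0184, 0 and 0.0303, and 0 and 0 FPKM in the same order in Trpm5-/- cells. The 5 pan-B markers summed to 1612 to 5526 FPKM and the 5 marginal zone markers to 365 to 608 FPKM, while the 5 T cell markers summed to no more than 1.38 FPKM. Erythroid markers, which B cells lack, summed to 91.7 to 186 FPKM in Trpm5-/- cells with anti-IgM and to 227 to 667 FPKM in the other libraries, and their part in the results was not tested. In such bulk RNA, fewer cells of a type and less RNA per cell cannot be told apart.

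Cytosolic synthetase RNAs were more abundant than mitochondrial ones. On the FPKM scale, which is per length, the median of the genes' mean levels was 115 FPKM for the 20 cytosolic and 10.6 FPKM for the 16 mitochondrial genes, beside 14.7 FPKM for all genes tested. The highest cytosolic gene was Nars (asparagine), with a mean level of 316 FPKM, and the lowest was Qars (glutamine), with 51.6 FPKM. The lowest mitochondrial gene was Ears2 (glutamate), with a mean of 2.80 FPKM. Lars2 (mitochondrial leucine) stood far above its compartment at 1158 FPKM, rank 74 among all genes, and the next mitochondrial gene, Yars2 (tyrosine), had a mean of 51.0 FPKM.

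The Lars2 level is uncertain. A stretch of 72 bases of its transcript matched that of Gm15564 at 98.6% identity, and Gm15564 is an RNA not listed in the files. Rn45s, the ribosomal precursor RNA, read 850 to 1174 FPKM in the same libraries, a level like that of Lars2. Whether reads of such RNAs reached the Lars2 count was not tested, so sums over the mitochondrial genes are given without Lars2. Outside overlapping exons of protein-coding transcripts, the other members shared no stretch of at least 200 bases at 97% identity with another gene, with these exceptions. Cars matched the processed pseudogene Gm15580 over 214 bases, and Cars2 and Nars2 matched transcripts of Naxd (217 bases) and C230038L03Rik (284 bases). Whether these transcripts overlap the members' own exons was not tested. Some exons overlap those of another gene: 30.5% of Iars2 exon bases lie under Rab3gap2 and 10.8% of Farsb under Sgpp2, both on the opposite strand, and 20.7% of Aars under Exosc6 on the same strand. Smaller overlaps, of 1.03% to 9.80% of exon bases, concern Hars with Hars2, Mars with Ddit3, Yars, Ears2 and Fars2. The labels do not state that strand was used in counting, so reads in those stretches could go to either gene.

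The summed cytosolic level separated the 3 conditions in both genotypes. It was 1430 ± 38.9 FPKM (SD, n = 2) in wild-type unstimulated cells, 3197 ± 31.5 FPKM with LPS, and with anti-IgM 2518 ± 26.4 FPKM. In Trpm5-/- cells the sums were 1677 ± 16.5, 3391 ± 2.21 and 2639 ± 4.71 FPKM in the same order (SD, n = 2 each). Within a genotype no library of one condition overlapped another, and LPS gave the highest sums. The 15 mitochondrial genes other than Lars2 summed to 184 ± 8.14, 281 ± 5.0 and 239 ± 6.66 FPKM in wild-type cells and to 190 ± 1.64, 291 ± 1.88 and 237 ± 4.21 FPKM in Trpm5-/- cells (SD, n = 2 each), in the same order of conditions.

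**Figure D1:**
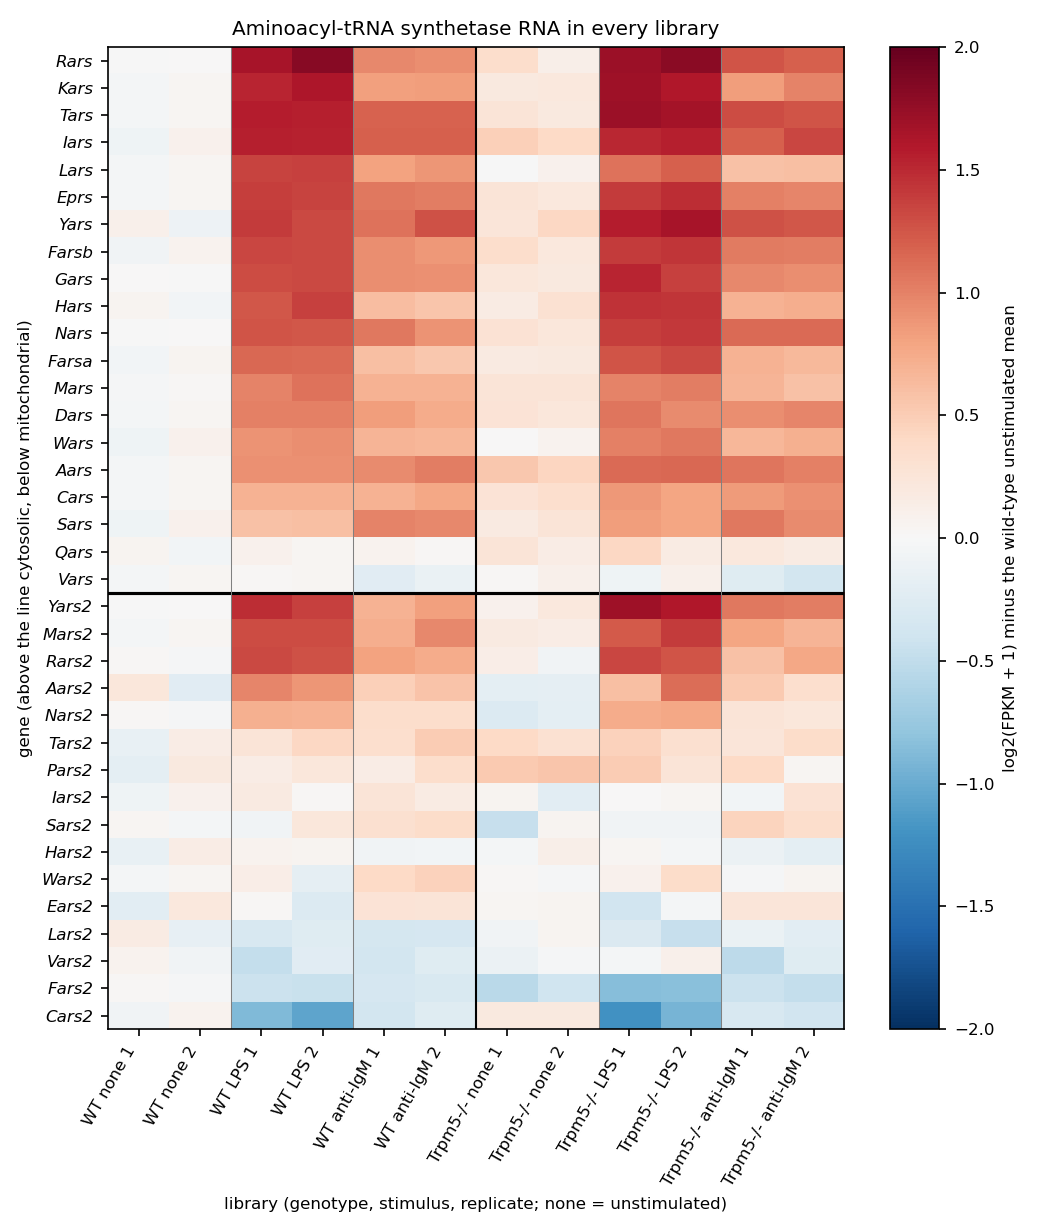
Each row is a synthetase gene (20 cytosolic above the line, 16 mitochondrial below) and each column a library, coloured by log2(FPKM + 1) minus the mean of the 2 wild-type unstimulated libraries. The cytosolic rows turn red in the LPS and anti-IgM columns of both genotypes except Qars and Vars, whereas Cars2 and Fars2 turn blue with LPS.

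Promoter sequence is shown for members in which letters tied to a known regulator of this family or of mitochondrial genes were found, so that those members can be set beside the responses described next. Windows of 250 bases before to 50 bases after the transcription start were available for 27 of the 36 genes from RefSeq (GRCm38.p6). The genes without a window were Cars, Hars, Hars2, Lars, Nars, Pars2, Rars, Vars and Wars. Both strands were searched for 3 motifs: TGATGNAA, the letters of the C/EBP-ATF element that ATF4 is known to bind, CACGTG, the E-box bound by MYC and related factors, and GCATGCGC, the core of the NRF1 site found in many genes for mitochondrial proteins. In the members' windows no match of one motif overlapped a match of another. Counted per gene with a window, TGATGNAA occurred in 5 of 13 cytosolic genes (38.5%), in 0 of 14 mitochondrial genes and in 4.51% of all 27025 genes. Windows of 4 of these genes are printed 5′ to 3′ on the gene's strand, with the matched letters, or their reverse complement, in capitals.
Iars, chr13:49682126-49682155, plus strand: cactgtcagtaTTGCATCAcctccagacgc
Tars, chr15:11399655-11399684, minus strand: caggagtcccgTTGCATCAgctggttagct
Gars, chr6:55037960-55037989, plus strand: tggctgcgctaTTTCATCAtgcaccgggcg
Yars, chr4:129189895-129189924, plus strand: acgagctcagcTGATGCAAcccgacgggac
Iars and Tars carry the same 8 capital letters, and Yars carries the motif in the other orientation.

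The E-box occurred in 4 of 13 cytosolic genes with a window (30.8%), namely Aars, Farsb, Iars and Tars. It occurred in 1 of 14 mitochondrial genes (7.14%), Ears2, and in 8.09% of all genes with a window. Aars, Iars and Tars thus held both the E-box and the C/EBP-ATF letters, in separate stretches. The E-box windows of Iars and Tars are given for comparison.
Iars, chr13:49682049-49682078, plus strand: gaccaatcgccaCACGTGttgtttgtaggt
Tars, chr15:11399622-11399651, minus strand: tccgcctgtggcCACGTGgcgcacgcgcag
The NRF1 core was found in 0 of 13 cytosolic and in 3 of 14 mitochondrial genes with a window (21.4%), against 3.05% of all such genes. These were Rars2, Vars2 and Wars2, of which Rars2 alone was called higher with LPS.
Rars2, chr4:34614895-34614924, plus strand: cggccccgtgtGCATGCGCactccacactt
Vars2, chr17:35667620-35667649, minus strand: gagtcttttacGCATGCGCctgcgtgtccc
Wars2, chr3:99141015-99141044, plus strand: ccagaggacagGCGCATGCgtagtaagcac
These matches are descriptions of letters in a window, and no binding was measured.

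LPS raised nearly all cytosolic synthetase RNAs of wild-type cells. The limma fit was made on log2(FPKM + 1), and a gene was called where its Benjamini-Hochberg adjusted p was under 0.05. By it 18 of 20 cytosolic genes rose and 0 fell, and 6 of 16 mitochondrial genes rose and 3 fell. Over all genes tested 35.0% were called higher and 34.4% lower with LPS. The median log2 difference was 1.28 for the cytosolic genes, 0.089 for the mitochondrial genes and -0.018 for all genes. Qars (log2 0.069 ± 0.084 SE) and Vars (valine; 0.024 ± 0.072 SE) were the cytosolic genes that were not called. Each of the 18 cytosolic rises kept its direction and its call under all 12 alternative settings run for this comparison.

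The largest rise was that of Rars, the arginine enzyme (chr11:35808381-35834506, minus strand, mm10). Its level went from 52.7 and 52.9 FPKM unstimulated to 168 and 188 FPKM with LPS in wild-type cells, a log2 difference of 1.73 ± 0.080 (SE, n = 2 a group). Both LPS libraries stood more than 100 FPKM above both unstimulated ones. Kars, the lysine enzyme, went from 70.5 and 74.9 FPKM to 211 and 225 FPKM (log2 1.57 ± 0.065 SE). Tars, the threonine enzyme, went from 66.9 and 70.3 FPKM to 206 and 203 FPKM (log2 1.56 ± 0.050 SE). Iars, the isoleucine enzyme, went from 67.0 and 75.2 FPKM to 210 and 209 FPKM (log2 1.55 ± 0.067 SE). In each of these 4 genes the LPS libraries were close to each other and did not overlap the unstimulated ones.

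The other cytosolic genes that rose did so by log2 0.59 (Sars, serine) to 1.36 (Lars, leucine, and Eprs, the fused glutamate and proline enzyme). Of the 8 multisynthetase complex enzymes 7 rose, with a median log2 difference of 1.36 over the 8, and of the 12 cytosolic genes outside it 11 rose, with a median of 1.19. The 5 genes with the C/EBP-ATF letters all rose, with a median of 1.35, against 7 of the 8 cytosolic genes with a window without them, with a median of 1.09. These ranges overlapped, from 0.91 to 1.56 and from 0.069 to 1.57.

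Trpm5-/- cells gave a similar picture on LPS: 18 of 20 cytosolic genes rose and 0 fell, and 5 of 16 mitochondrial genes rose and 3 fell, while 34.8% of all genes were called higher and 33.8% lower. The cytosolic median was 1.11, the mitochondrial median 0.098 and that of all genes -0.018. Rars again rose furthest, from 67.3 and 57.4 FPKM to 176 and 186 FPKM (log2 1.52 ± 0.080 SE). Tars went from 81.9 and 78.4 FPKM to 228 and 220 FPKM (log2 1.47 ± 0.050 SE). Kars went from 83.3 and 84.5 FPKM to 238 and 222 FPKM (log2 1.44 ± 0.065 SE). The LPS levels of these genes in Trpm5-/- cells lay near those of wild-type cells, from slightly higher starting levels. Qars (0.088 ± 0.084 SE) and Vars (-0.047 ± 0.072 SE) were again not called. When FPKM were rescaled to the same sum per library, Cars and Sars lost their call in this genotype (lowest log2 0.11 and 0.17).

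The mitochondrial genes split under LPS. Yars2, the tyrosine enzyme, rose most: its level went from 25.7 and 25.8 FPKM to 73.5 and 67.7 FPKM in wild-type cells (log2 1.42 ± 0.072 SE) and from 27.5 and 30 FPKM to 85.5 and 80.2 FPKM in Trpm5-/- cells (1.5 ± 0.072 SE). Mars2 (methionine), Rars2 (arginine), Aars2 (alanine) and Nars2 (asparagine) also rose in both genotypes, by log2 0.70 to 1.31 in wild-type and 1.0 to 1.27 in Trpm5-/- cells. Tars2 (threonine) was called higher in wild-type cells (0.33 ± 0.11 SE) and not in Trpm5-/- cells (0.049 ± 0.11 SE), and the difference between these responses was not called (-0.28 ± 0.16 SE). After rescaling to a common sum the wild-type Tars2 difference was -0.042.

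Cars2, the mitochondrial cysteine enzyme (chr8:11513977-11550783, minus strand, mm10), fell furthest. It read 10.0 and 11.2 FPKM unstimulated and 5.29 and 4.6 FPKM with LPS in wild-type cells (log2 -0.96 ± 0.13 SE), and 12.3 and 12.3 against 4.01 and 5.09 FPKM in Trpm5-/- cells (-1.26 ± 0.13 SE). All 4 LPS libraries lay below all 4 unstimulated libraries. Fars2 (phenylalanine) went from 14.2 and 13.7 to 10.1 and 9.92 FPKM in wild-type (-0.44 ± 0.095 SE) and from 9.24 and 10.3 to 7.26 and 7.35 FPKM in Trpm5-/- cells (-0.37 ± 0.095 SE). Lars2 was called lower too, from 1477 and 1177 to 1056 and 1115 FPKM (-0.28 ± 0.10 SE) and from 1258 and 1369 to 1077 and 962 FPKM (-0.37 ± 0.10 SE). The Lars2 call in wild-type cells was kept in 6 of 12 alternative settings.

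Anti-IgM also raised cytosolic synthetase RNAs, with a smaller median, measured against the same unstimulated libraries as LPS. In wild-type cells 18 of 20 cytosolic genes rose and 0 fell, and 7 of 16 mitochondrial genes rose and 2 fell, against 27.7% of all genes called higher and 20.9% lower. The median log2 difference was 0.87 for the cytosolic, 0.31 for the mitochondrial and 0.015 for all genes. The mitochondrial calls were less stable: the members called lower numbered 0 without wild-type unstimulated replicate 1, without either anti-IgM library and with only the groups compared, 1 without wild-type unstimulated replicate 2 and 4 after rescaling to a common sum. Of the mitochondrial rises Aars2 kept its call in 6 of 12 settings and Wars2 in 2 of 11. Each cytosolic rise kept its call in all 12 alternative settings run for this comparison, and Qars (0.042 ± 0.084 SE) and Vars (-0.18 ± 0.072 SE) were not called.

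Iars, Tars, Yars and Eprs led this response. With anti-IgM Iars reached 164 and 164 FPKM (log2 1.19 ± 0.067 SE) and Tars 157 and 157 FPKM (1.18 ± 0.050 SE), both below their LPS levels. Yars (tyrosine) went from 33.4 and 28.6 FPKM to 66.7 and 75.9 FPKM (1.18 ± 0.092 SE), and with LPS it read 82.8 and 78.4 FPKM. Eprs went from 68.7 and 72.3 FPKM to 147 and 145 FPKM (1.04 ± 0.051 SE), and with LPS it read 185 and 181 FPKM. In all 4 genes the anti-IgM libraries stood between the unstimulated and the LPS libraries. The 5 genes with the C/EBP-ATF letters had a median log2 difference of 1.18 and a range of 0.92 to 1.19, and the 8 cytosolic genes with a window and without the letters a median of 0.81 and a range of 0.042 to 1.04. In Trpm5-/- cells the medians were 0.83 and 0.70, with ranges of 0.57 to 1.06 and -0.012 to 0.78. The ranges overlapped in both genotypes.

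In Trpm5-/- cells anti-IgM raised 18 of 20 cytosolic genes and lowered 1, and raised 6 of 16 mitochondrial genes and lowered 1, against 26.9% of all genes called higher and 23.0% lower. The medians were 0.70 for the cytosolic, 0.11 for the mitochondrial and -0.001 for all genes. The genes of largest rise were Tars, to 170 and 165 FPKM (1.06 ± 0.050 SE), Rars, to 127 and 122 FPKM (0.99 ± 0.080 SE), Yars, from 36.9 and 41.7 to 76.0 and 74.5 FPKM (0.92 ± 0.092 SE), and Yars2, to 54.3 and 53.5 FPKM (0.89 ± 0.072 SE). Each stood clear of its unstimulated libraries. The cytosolic gene that fell was Vars, from 137 and 144 FPKM to 114 and 104 FPKM (-0.36 ± 0.072 SE). Wild-type Vars read 131 and 138 FPKM unstimulated, 137 and 138 FPKM with LPS, and with anti-IgM 115 and 123 FPKM, so its anti-IgM libraries were lowest in both genotypes.

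Among mitochondrial genes with anti-IgM, Cars2 read 7.95 and 8.76 FPKM in wild-type (-0.31 ± 0.13 SE, not called) and 8.32 and 7.91 FPKM in Trpm5-/- cells (-0.54 ± 0.13 SE, called), in each case above its LPS level. Fars2 read 10.9 and 11.1 FPKM in wild-type cells (-0.32 ± 0.095 SE, called, and in 7 of 12 alternative settings) and 10.1 and 9.80 FPKM in Trpm5-/- cells (0.025 ± 0.095 SE, not called). Lars2 read 1031 and 1041 FPKM (-0.35 ± 0.10 SE, called, and in 8 of 12) and 1199 and 1140 FPKM (-0.17 ± 0.10 SE, not called). Ears2, the least abundant member, stayed between 1.81 and 3.41 FPKM in all 12 libraries and was called in neither response of either genotype.

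**Figure D2:**
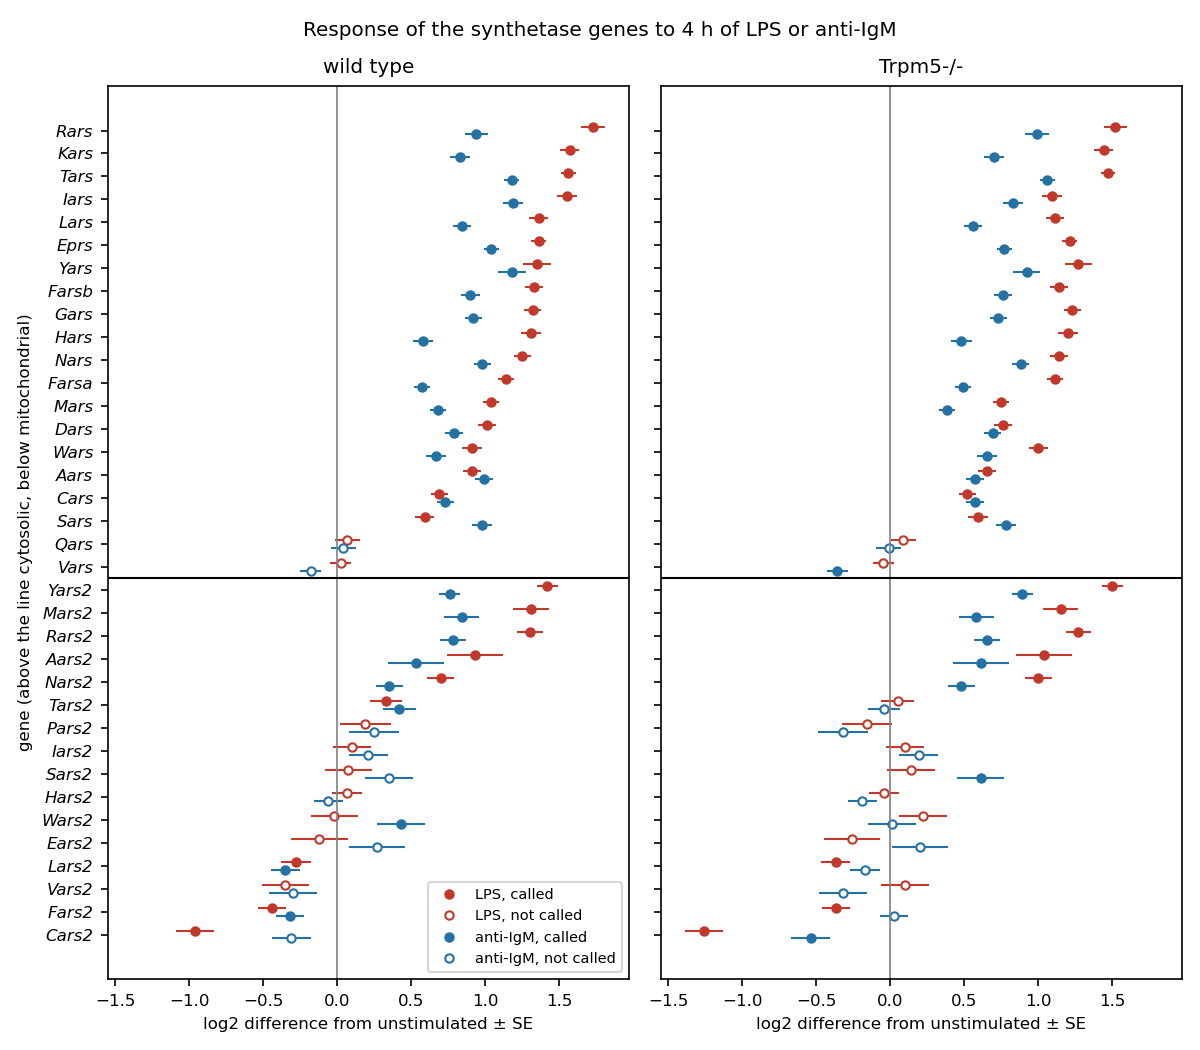
Log2 difference from unstimulated cells with its standard error for each synthetase gene, in wild-type cells on the left and Trpm5-/- cells on the right, for LPS in red and anti-IgM in blue, with filled points where the adjusted p was under 0.05. Of the 20 cytosolic genes above the line, 18 lie to the right of 0 for both stimuli in both genotypes, and the mitochondrial genes run from Yars2 at 1.42 to Cars2 at -0.96 with LPS in wild-type cells.

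Tested directly on the deposited scale, most cytosolic synthetase RNAs were higher with LPS than with anti-IgM, a direction that turned for 6 of them in wild-type cells under another scaling. In wild-type cells 15 of 20 cytosolic genes were higher and 1 lower with LPS, and 4 of 16 mitochondrial genes were higher and 2 lower, against 27.7% and 25.0% of all genes. In Trpm5-/- cells the counts were 15 and 1 of 20 and 5 and 3 of 16, against 28.3% and 23.6%. The cytosolic medians were 0.34 and 0.36. Rars (0.79 ± 0.080 SE), Kars (0.74 ± 0.065 SE) and Hars (histidine; 0.73 ± 0.069 SE) had the largest differences in wild-type cells, and in Trpm5-/- cells Kars (0.74 ± 0.065 SE) and Hars (0.73 ± 0.069 SE). Hars went from 54.6 and 50 FPKM to 125 and 137 FPKM with LPS but only to 80.4 and 77.2 FPKM with anti-IgM. It was singled out after its values were seen.

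Sars was the exception in the other direction, and was also singled out after its values were seen. It read 59.7 and 67.5 FPKM unstimulated, 96.0 and 96.7 FPKM with LPS, and with anti-IgM 127 and 125 FPKM in wild-type cells, and 72.3 and 76.0, 114 and 110, and 133 and 123 FPKM in Trpm5-/- cells. Anti-IgM libraries were highest in both genotypes, and LPS minus anti-IgM was -0.38 ± 0.067 SE and -0.19 ± 0.067 SE. The Sars call was kept in 12 of 12 alternative settings in wild-type cells but in 6 of 12 in Trpm5-/- cells. Aars (alanine) and Cars (cysteine) had nearly equal levels with either stimulus, with LPS minus anti-IgM at -0.082 ± 0.060 and -0.042 ± 0.059 SE in wild-type and 0.088 ± 0.060 and -0.052 ± 0.059 SE in Trpm5-/- cells, none of them called. Exosc6, which shares exon bases with Aars, went from 31.7 and 34.0 FPKM to 126 and 118 FPKM with LPS in wild-type cells, and what it adds to the Aars value was not tested.

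The number of synthetases higher with LPS depended on the scale. LPS libraries had larger FPKM sums, and rescaling every library to the same sum put the median log2 difference of all genes at -0.36 for LPS and -0.24 for LPS minus anti-IgM in wild-type cells, in place of -0.018 and 0. On that scale 23 members rose and 7 fell with LPS in wild-type cells, 21 rose and 9 fell in Trpm5-/- cells, and 23 rose and 7 fell with anti-IgM in Trpm5-/- cells. LPS minus anti-IgM then called 7 members higher and 11 lower in wild-type cells and 12 higher and 7 lower in Trpm5-/- cells, and under quantile normalization 9 and 5 and 13 and 6. These counts are not set beside the shares of all genes called on the same scales. They therefore do not show whether the members differ from other genes. Relative to the median of all genes, the 36 members lay 0.94 higher with LPS in wild-type cells as deposited and 0.93 higher after rescaling. Rescaling moves members and other genes alike, so these values had to be close. Under quantile normalization the members lay 0.52 higher in that comparison. For LPS minus anti-IgM the members' median, relative to that of all genes, was 0.20 after rescaling and -0.033 under quantile normalization in wild-type cells. For LPS minus anti-IgM in wild-type cells Dars and Vars changed sign on both scales, Eprs, Iars and Nars under quantile normalization and Wars after rescaling.

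Some RNAs that mark RNA quality or other cells moved with LPS as well. Neat1 and Malat1, long RNAs kept in the nucleus, fell with LPS by 4.20 and 1.12 on the log2 scale in wild-type cells and by 3.57 and 0.79 in Trpm5-/- cells. The 4 dendritic cell markers summed to 8.84 to 9.28 FPKM unstimulated and 71.3 to 76.3 FPKM with LPS in wild-type cells, and to 7.44 to 7.90 and 70.6 to 70.9 FPKM in Trpm5-/- cells. Nearly all of that was Zbtb46, at 65.1 and 70.2 FPKM in the wild-type LPS libraries, while Siglech was at no more than 0.138 FPKM and Itgax at no more than 0.802 FPKM in any library. Their part in the synthetase results was not tested.

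**Figure D3:**
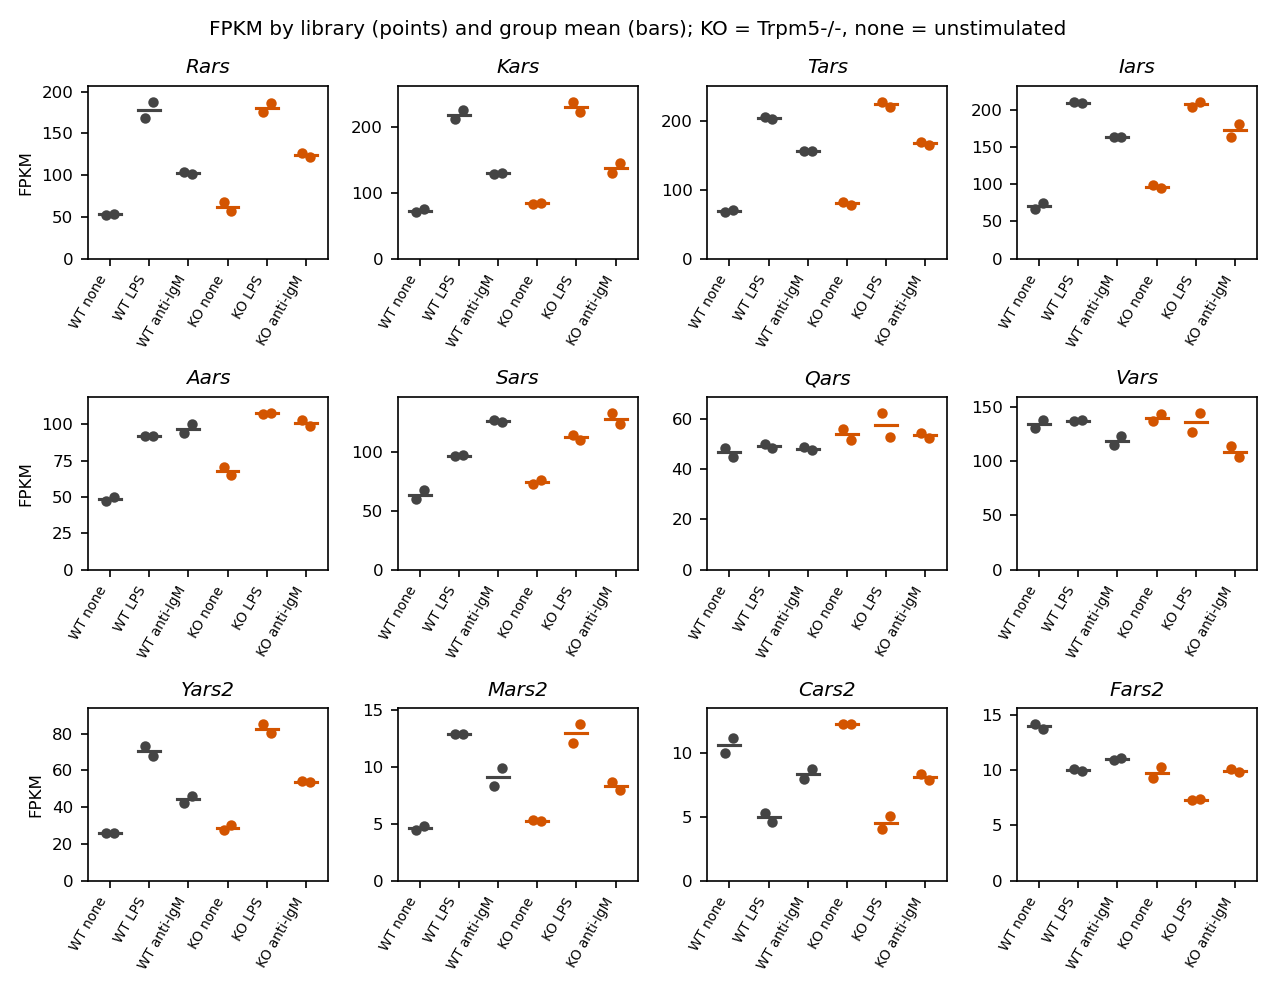
FPKM of 12 synthetase genes in every library (points) with the mean of each group of 2 (bars), wild type in grey and Trpm5-/- in orange, each axis starting at 0. Rars, Kars, Tars, Iars, Yars2 and Mars2 step up from unstimulated to anti-IgM to LPS, Sars is highest with anti-IgM, Qars stays between 45.1 and 62.7 FPKM, and Cars2 is lowest with LPS.

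Without stimulus, cytosolic synthetase RNAs were somewhat higher in Trpm5-/- than in wild-type cells. All 20 had a log2 difference above 0, with a median of 0.23 and a range of 0.034 to 0.48, and 10 of 20 were called higher and 0 lower, beside 4.45% of all genes called higher and 1.66% lower. Of the 16 mitochondrial genes 0 were called higher and 1 lower, with a median of 0.019. The median of all genes was 0.022. These calls are sensitive: with either library of either group left out the members called numbered 1 (without Trpm5-/- replicate 1), 2 (without wild-type replicate 1), 3 (without Trpm5-/- replicate 2) and 4 (without wild-type replicate 2), and with the fit held to the 2 groups compared 0. After rescaling to the same sum, 3 were called higher and 1 lower.

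Aars and Iars showed the largest called rises. Aars (chr8:111033144-111057664, plus strand, mm10) read 47.2 and 49.7 FPKM in wild-type and 70.6 and 65.3 FPKM in Trpm5-/- unstimulated cells, a log2 difference of 0.48 ± 0.060 (SE, adjusted p = 0.00228, limma). Iars (chr13:49682100-49734267, plus strand, mm10) read 67.0 and 75.2 against 99.4 and 94.3 FPKM, a difference of 0.44 ± 0.067 (SE, adjusted p = 0.00621, limma). In both genes the genotypes did not overlap. The Exosc6 levels that overlap Aars were 31.7 and 34.0 FPKM in wild-type and 32.2 and 36.6 FPKM in Trpm5-/- cells.

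Cars read 44.8 and 47.1 against 55.8 and 58.4 FPKM, a difference of 0.31 ± 0.059 (SE, adjusted p = 0.0164, limma). Cars (chr7:143557230-143600090, minus strand, mm10) lies 0.463 Mb from Trpm5 itself, and whether DNA that travelled with the targeted allele plays a part was not tested. Fars2, the member that was lower, read 14.2 and 13.7 FPKM in wild-type and 9.24 and 10.3 FPKM in Trpm5-/- cells, a difference of -0.47 ± 0.095 (SE, adjusted p = 0.0189, limma). The other called genes were Mars, Eprs, Tars, Farsb, Nars, Dars and Gars, with differences of 0.22 to 0.28. Pars2 (proline) had the largest difference of all 36, 0.54 ± 0.17 SE, with 5.38 and 7.29 FPKM against 9.47 and 9.72 FPKM, and was not called.

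With a stimulus fewer members were called by genotype, though the difference between conditions was itself called for none of them. Under LPS 0 of 36 were called higher and 1 lower, where 1.82% of all genes were higher and 1.78% lower, and the cytosolic median was 0.12. The gene called was Fars2, at 10.1 and 9.92 against 7.26 and 7.35 FPKM (-0.41 ± 0.095 SE, adjusted p = 0.0465, limma). That call was lost with any of the 4 libraries left out (0 called), and under both quantile normalization and rescaling to a common sum (0 called). Under anti-IgM 0 of 36 were called in limma in either direction, where 1.91% of all genes were higher and 1.92% lower. An unadjusted p under 0.05 was found for 7 of 36 members and for 2116 of all 10797 genes, a similar share. The members of smallest p, not called, were Lars, at 113 and 119 against 97.2 and 98.0 FPKM (-0.24 ± 0.061 SE), and Yars2, at 42.4 and 46.2 against 54.3 and 53.5 FPKM (0.28 ± 0.072 SE).

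Averaged over the 3 conditions, 14 of 20 cytosolic genes were called higher and 1 lower in Trpm5-/- cells, and 1 of 16 mitochondrial genes higher and 1 lower, beside 10.2% and 5.88% of all genes. The cytosolic median was 0.15, a small difference. Aars (0.25 ± 0.034 SE), Fars2 (-0.34 ± 0.055 SE), Cars (0.20 ± 0.034 SE) and Nars (0.19 ± 0.034 SE) had the smallest p. Nars read 166 and 167 against 204 and 194 FPKM unstimulated, 401 and 394 against 436 and 444 FPKM with LPS, and with anti-IgM 348 and 310 against 365 and 368 FPKM. Its Trpm5-/- libraries were higher in all 3 conditions. Aars read 91.7 and 91.7 against 107 and 108 FPKM with LPS but 94.1 and 100 against 103 and 98.7 FPKM with anti-IgM, where the genotypes overlap. Cars read 74.9 and 74.7 against 84.2 and 80.2 FPKM with LPS, and with anti-IgM 74.7 and 79.4 against 83.4 and 87.2 FPKM, higher in Trpm5-/- cells each time.

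Lars was the cytosolic gene called lower over the 3 conditions (-0.14 ± 0.035 SE). It read 62.2 and 66.3 against 63.8 and 68.1 FPKM unstimulated and 165 and 167 against 138 and 149 FPKM with LPS, so the genotypes overlapped without stimulus and not with it. Yars2 was the mitochondrial gene called higher (0.22 ± 0.042 SE). Of these 17 calls, Aars, Cars, Fars2 and Yars2 kept theirs in all 20 alternative settings run, while the count fell to 4 higher and 2 lower with quantile normalization, to 5 higher and 2 lower after rescaling to the same sum, and to 11 without wild-type LPS replicate 1 and 10 without wild-type anti-IgM replicate 2. Qars, with levels of 45.1 to 62.7 FPKM over all libraries, was called higher by genotype (0.19 ± 0.048 SE) and was called in no stimulus response. It read 48.7 and 45.1 against 56.3 and 51.9 FPKM unstimulated, 50 and 48.4 against 62.7 and 52.8 FPKM with LPS, and 49.0 and 47.6 against 54.5 and 52.7 FPKM with anti-IgM.

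Other RNAs differed by genotype in the same libraries. The 5 marginal zone markers summed to 365 to 432 FPKM over the wild-type and 555 to 608 FPKM over the Trpm5-/- libraries, and the 4 follicular markers to 912 to 924 against 686 to 713 FPKM unstimulated, 1418 to 1420 against 1003 to 1007 FPKM with LPS, and with anti-IgM 334 to 357 against 236 to 252 FPKM. Cd9 made up most of the marginal zone difference, at 269 and 284 against 470 and 472 FPKM unstimulated. Dtx1 and S1pr3 were also higher in Trpm5-/- cells, Cd1d1 overlapped without stimulus, and Cr2 was lower with either stimulus. With LPS Cr2 read 86.4 and 87.4 against 70.3 and 75.1 FPKM. Of the follicular markers Cxcr5 differed little, at 146 and 142 against 150 and 159 FPKM unstimulated. No marker of these lists was at 0. Malat1 and Neat1 were lower in unstimulated Trpm5-/- cells, by 0.45 and 0.42 on the log2 scale. Their part in the synthetase differences was not tested.

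**Figure D4:**
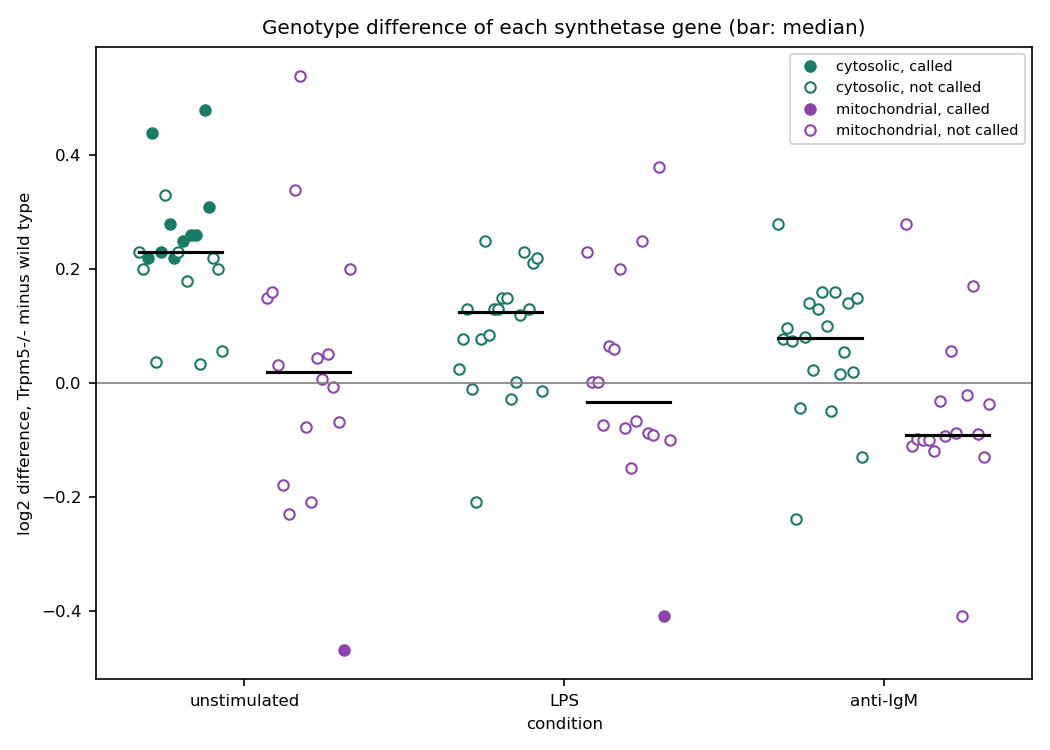
Log2 difference, Trpm5-/- minus wild type, of each cytosolic (green) and mitochondrial (purple) synthetase gene in the 3 conditions, with filled points where the adjusted p was under 0.05 and black bars at the medians. The 20 cytosolic genes all lie above 0 without stimulus, with a median of 0.23, and their medians are 0.12 with LPS and 0.079 with anti-IgM.

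The interaction terms ask whether the response itself differed between genotypes. For LPS 0 of 36 members were called in limma, where 0.0648% of all genes were called higher and 0.0370% lower. Of the members 6 of 36 had an unadjusted p under 0.05, beside 1113 of all 10797 genes. For anti-IgM 0 of 36 were called, where 0.00926% were higher and 0.0185% lower, and 9 of 36 had an unadjusted p under 0.05, beside 857 of all genes. The cytosolic medians were -0.12 and -0.15, and 2 and 1 of the 20 cytosolic genes lay above 0. The members of smallest p, not called, were Iars (-0.45 ± 0.095 SE) and Mars (methionine; -0.28 ± 0.076 SE) for LPS and Aars (-0.42 ± 0.084 SE) and Mars (-0.30 ± 0.076 SE) for anti-IgM. Mars read 71.1 and 73.2 FPKM unstimulated, 144 and 154 FPKM with LPS, and with anti-IgM 117 and 117 FPKM in wild-type cells, and 86.3 and 86.3, 145 and 147, and 116 and 109 FPKM in Trpm5-/- cells. Its stimulated levels were alike in the genotypes and its unstimulated levels were not. Iars in Trpm5-/- cells likewise read 204 and 211 FPKM with LPS, and with anti-IgM 164 and 181 FPKM, close to wild type. Both interactions share the unstimulated libraries with the unstimulated genotype difference, so they are not separate evidence of it.

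Genes that work beside the synthetases are given by list, and their counts stand against the shares of all genes called higher and lower: 35.0% and 34.4% with LPS in wild-type cells, 34.8% and 33.8% with LPS in Trpm5-/- cells, and 27.7% and 20.9%, and 26.9% and 23.0%, with anti-IgM. The 3 scaffold proteins of the multisynthetase complex rose in all 4 responses: with LPS in wild-type cells Eef1e1 by 2.49 ± 0.079 SE, Aimp2 by 1.84 ± 0.049 SE and Aimp1 by 0.96 ± 0.096 SE, and with anti-IgM by 1.17, 1.25 and 0.58. Of 6 genes listed for the delivery of charged tRNA to the ribosome 5 rose in each response. With LPS in wild-type cells Eef1d rose by 1.33 ± 0.070 SE, Eef1g by 0.86 ± 0.058 SE and mitochondrial Tufm by 1.18 ± 0.089 SE. Eef1a1 was not called there (0.18 ± 0.077 SE). Of 10 genes for tRNA end processing and export 9 rose and 0 fell in each response. With LPS in wild-type cells Trnt1, which adds the CCA end that synthetases charge, rose by 2.12 ± 0.071 SE, Elac2, which trims the 3′ end, by 1.8 ± 0.064 SE, Ssb, which binds the new transcript, by 1.19 ± 0.060 SE, and Xpot, the tRNA exporter, by 1.38 ± 0.083 SE. Of 18 genes of RNA polymerase III, which transcribes tRNA genes, and its factors 11 rose and 2 fell with LPS in wild-type cells (13 and 2 in Trpm5-/- cells), with Polr3e at 1.75 ± 0.091 SE, Polr3d at 1.71 ± 0.098 SE and Maf1, its repressor, at -0.74 ± 0.069 SE. With anti-IgM 8 rose and 2 fell in wild-type cells and 7 and 2 in Trpm5-/- cells.

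With LPS in wild-type cells the called genes of the smaller lists were split between the directions, as among all genes. In the other responses they were split in some cases and only higher in others. The lists hold too few genes to set their shares apart from those of all genes. Of 4 genes of the mitochondrial amidotransferase and formylation, by which some mitochondrial tRNAs are finished after charging, 2 rose and 1 fell with LPS in wild-type cells, with Mtfmt at 0.65 ± 0.10 SE, Qrsl1 at 0.33 ± 0.12 SE and Gatb at -0.38 ± 0.15 SE. Of 6 genes for proofreading and selenocysteine charging 3 rose and 2 fell, with Sepsecs at 0.78 ± 0.13 SE and Dtd1, a D-aminoacyl-tRNA deacylase, at -0.58 ± 0.11 SE.

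Of 22 listed genes of the amino acid starvation response through GCN2 and ATF4, 20 were tested. With LPS 13 rose and 3 fell in wild-type and 12 rose and 2 fell in Trpm5-/- cells, and with anti-IgM 16 and 14 rose and 0 fell in either. Shmt2, of serine metabolism, rose by 1.57 ± 0.043 SE and Slc7a5, a leucine transporter subunit, by 2.2 ± 0.10 SE with LPS in wild-type cells, and Shmt2 by 1.33 ± 0.043 SE and Slc3a2, the partner of Slc7a5, by 1.53 ± 0.065 SE with anti-IgM. LPS minus anti-IgM split this list in wild-type cells: 5 of the 20 were called higher and 7 lower, beside 27.7% and 25.0% of all genes. In Trpm5-/- cells 4 were higher and 5 lower, beside 28.3% and 23.6%. Ddit3, a target of ATF4, was lower with LPS than with anti-IgM, at 30 and 28.8 against 97.4 and 95.9 FPKM in wild-type cells (-1.68 ± 0.062 SE). So was the serine synthesis gene Phgdh (-0.79 ± 0.047 SE). Atf4 read 186 and 217 FPKM with LPS against 151 and 154 FPKM with anti-IgM in wild-type cells.

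For the genotype difference without stimulus, where 4.45% of all genes were called higher and 1.66% lower, the lists ran as follows. Of the 20 starvation response genes 6 were called higher and 0 lower in Trpm5-/- cells, with Shmt2 at 0.45 ± 0.043 SE, Phgdh at 0.41 ± 0.047 SE and Chac1 at 1.46 ± 0.29 SE. Of the 3 scaffold genes 2 were called higher, Aimp2 (0.36 ± 0.049 SE) and Eef1e1 (0.32 ± 0.079 SE). Of the 10 tRNA processing genes 3 were called higher, Trnt1 (0.46 ± 0.071 SE), Xpot (0.42 ± 0.083 SE) and Elac2 (0.32 ± 0.064 SE), and of the 6 proofreading genes 1, Dtd2 (0.93 ± 0.15 SE). Of the 6 delivery genes, the 18 RNA polymerase III genes and the 4 amidotransferase genes 0 were called in either direction, and 0 genes of these lists were called lower. By genotype with LPS, 1 of the 20 starvation response genes was called higher and 0 lower, beside 1.82% and 1.78% of all genes. With anti-IgM 0 were called higher and 1 lower, beside 1.91% and 1.92% of all genes.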

How the data were processed

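RNA-seq was measured in 12 libraries of mouse marginal zone B cells (6 groups of 2). Per the labels' protocols, SMART-Seq HT made full-length cDNA from total RNA and Nextera the libraries. Per the submitters' processing notes, Cufflinks 2.2.1, SAMtools 0.1.19, Bowtie2 2.2.3 and TopHat2 2.0.13 were used with mm10. The deposited values are 1 number per gene symbol and were read as FPKM, since the authors used Cufflinks. No header names the unit, and read totals are unknown here, so the depth of each library is known only in relative terms.

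Values were analysed as log2(FPKM + 1), so fold changes of low genes are understated. The 10797 genes that reached 1 FPKM or more in 2 libraries or more entered a group-means model over all 12 libraries in limma 3.58.1 (R 4.3.3; eBayes with trend, 6 residual degrees of freedom). It gave 12 comparisons with 2-sided p-values, Benjamini-Hochberg adjusted over all genes tested and called under 0.05. Errors of log2 differences are model standard errors. The model was tested on simulated data. Positions and exon overlaps are from GENCODE M21 on mm10, and shared stretches from BLAST 2.17.0 against its transcripts. Promoters are RefSeq GRCm38.p6 windows, matched by symbol for 27 of 36 members.

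The members and lists were chosen with earlier results of these data known, as were the multisynthetase complex split and the promoter motifs, so counts over them are descriptions. Members with a value in every library are the 4 called ones of largest rise and of largest fall in each response, the 4 called ones of smallest p in each genotype difference and interaction (the 2 of smallest p where none was called), and the highest and lowest of each compartment. Of each related list 2 to 4 genes of smallest p are named. Replicate numbers were not used to pair the libraries in the main fit. Alternatives were a pseudocount of 0.1, no filter, a mean of at least 5 FPKM, quantile normalization, scaling to a common sum (TPM), no trend, a replicate block, only the groups compared, and each library left out. Some genes that these rules would name, and some promoter sequence, are not reported here.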

Additional observations from a re-analysis of the deposited data

How the results depend on the processing

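In the 4 stimulus responses 22 to 31 of 36 members were called under the alternatives run, against 26 or 27 as reported. LPS minus anti-IgM in wild-type cells fell from 22 to 14 with quantile normalization. There the signs of Dars (-0.12), Eprs (-0.0013), Iars (-0.013), Nars (-0.023) and Vars (-0.071) turned, as did Iars in Trpm5-/- cells (-0.030). With scaling to a common sum Dars (-0.052), Vars (-0.067) and Wars (-0.025) turned in the same comparison, and Tars2 in the wild-type LPS response (-0.042). Genotype differences depended most on the settings. Without stimulus 11 members were called, 4 with a common sum, 3 without trend, 0 with only the groups compared, and 1 to 4 with a library left out. For all genes that count was 660, against 51 with only the groups compared and 159 to 274 with a library left out. With LPS the single call became 0 with quantile normalization, a common sum, the replicate block, only the groups compared and each library left out (0 to 0). With anti-IgM 0 became 1 with quantile normalization and 1 with the replicate block. Over the 3 conditions 17 became 6 with quantile normalization, 7 with a common sum, 9 without trend, and 10 to 16 with a library left out. The interactions stayed at 0 throughout. The causes were not tested.

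Libraries of the same replicate number showed no strong shared deviation: deviations from the group means correlated at -0.17 to 0.20, and 3 of 15 pairs of groups passed 0.1. The labels do not state whether such libraries share an animal or a day, and these correlations cannot exclude it. With the number as a block the counts were otherwise 26 (anti-IgM, wild type, from 27) or as reported. With 2 libraries a group and unknown read totals, small differences of low members such as Ears2 and Wars2 could not be resolved.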
